A study of Mus musculus with 8 samples.

Results

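Solute carriers are the membrane proteins named Slc and Slco that move amino acids, sugars, nucleosides, metals, lipids and other small molecules across the cell surface and the membranes of organelles. Genes were chosen by symbol from a table of RNA levels in mouse bone marrow CD11c positive cells, taking every symbol of the Slc or Slco pattern and leaving out a few iron-handling genes. This gave 182 of the 11756 genes in the table. Of these, 151 reached 10 in 4 or more libraries and were tested, among 10091 tested genes in all, and the other 31 were too low. The choice used no measured value, and 6 of the 182 are not transporters although their symbols match: Slc9a3r1 and Slc9a3r2 encode scaffold proteins, Slc4a1ap encodes a protein named for its link to an anion exchanger, Slc7a6os and Slc36a3os are named as opposite-strand genes, and Slc25a5-ps is a pseudogene.

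The cells came from femurs and tibias of C57BL/6 mice and were sorted by flow cytometry. In 4 libraries they were loaded with acetylated low density lipoprotein (acLDL), which cells take up through scavenger receptors, on culture day 6 and kept for 24 h, and 4 control libraries received none. The series' design text presents acLDL loading as a model of a vessel wall rich in lipid, as in atherosclerosis. The labels tie no library to an animal or culture of its own, and p-values here weigh differences against a spread between libraries that may be technical.

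Carriers fall into families by sequence, and the families largely follow their cargo. Some work at the cell surface, such as the glucose transporter Slc2a1, others in lysosomes, where they return the products of digestion to the cytosol, and the Slc25 family sits mainly in the inner membrane of mitochondria. Macrophages and dendritic cells that take up modified lipoproteins digest them in lysosomes, so carriers of these compartments meet the products of that digestion. Values below are the authors' normalized signal per gene and library, read from one end of each message. Whether they were divided by length is not given, so levels of different genes are not compared with each other. Log2 fold changes, or log2 differences, are acLDL minus control on the scale log2(value + 5), which understates changes of low genes.

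The libraries differed in the lengths of the transcripts they held, partly along the groups. An index of short transcripts, the mean log2 deviation of tested genes whose longest transcript is under 1000 nt, was 0.84, -1.08, -1.74 and -0.26 in acLDL libraries 1 to 4, against 0.06, 0.73, 0.86 and 0.59 in control libraries 1 to 4. The number of the 182 genes listed at 0 was 8, 40, 38 and 26 in acLDL libraries 1 to 4, against 25, 20, 13 and 17 in control libraries 1 to 4. Libraries 2 to 4 with acLDL had an index below every control and more members at 0 than any control, while acLDL library 1 had an index within the range of the controls and the fewest members at 0. A fit with the index as a covariate therefore also takes up part of the difference between acLDL and control, and the index and the treatment cannot be fully told apart. The summed value of 7 markers of CD11c positive and dendritic cells, among them Itgax, was 299.6 to 8648 with acLDL and 2947 to 7053 in controls, and all 7 were listed. Itgax itself, the gene of CD11c, was listed at 189, 10, 0 and 42.7 in acLDL libraries 1 to 4, against 81.5, 182, 195 and 172 in control libraries 1 to 4. The sum over 5 macrophage markers was 5921 to 11376 with acLDL and 5588 to 7042 in controls. Of 6 granulocyte markers 5 were listed, with sums of 386 to 10720.5 with acLDL and 4903 to 12635 in controls. One of 4 erythroid markers was listed, at 54.1 to 189.7 with acLDL and 164 to 1429 in controls, and 2 of 5 lymphocyte markers, with sums of 29.4 to 76.8 with acLDL and 16.6 to 31.4 in controls. In bulk samples fewer cells of a type and less RNA per cell cannot be told apart, and the part of any of these differences in the results was not tested. Where the index as a covariate moved a gene's log2 fold change by over 1.5 times, its value with the index is given beside it.

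No solute carrier gene passed the threshold of an adjusted p of 0.05 when acLDL was set against control, the study's question being the response of these cells to loading with lipid. The share called among all tested genes was 0%, and the smallest adjusted p in limma's test was 0.298 for members and for all genes. At an unadjusted p under 0.05 there were 31 of the 151 tested members, or 20.5%, against 16.4% of all tested genes. Without acLDL library 1 there were 57 members, or 37.7%, against 39.6% of all tested genes. Without acLDL library 2 or 3 there were 14 each, or 9.27%, against 6.95% and 7.46% of all tested genes. Without control library 2 there were 19, or 12.6%, against 8.23%, and without control library 4 there were 20, or 13.2%, against 9.04%. Of the 31, 15 were higher with acLDL, where the share of all tested genes was 7.42%, and 16 were lower, where it was 8.93%. The mean log2 value was higher with acLDL for 75 members and lower for 76, with a median log2 fold change of -0.04, against -0.13 over all tested genes. With the index as a covariate the medians were 0.09 for members and 0.03 for all tested genes, 7 members, or 4.64%, had an unadjusted p under 0.05, against 4.78% of all tested genes, and 41 of the 151 members changed sign. Quantile normalization moved the median of all tested genes to 0.15 and that of the members to 0.28. It left 91 members higher and 60 lower, or 60.3% higher, against 57.3% of all tested genes. The values as deposited gave 49.7% of members and 44.3% of all tested genes higher. With median-of-ratios size factors the shares were 45.7% and 42.4%.

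All 4 acLDL libraries lay above all 4 controls for 12 members, or 7.95% of those tested, against 3.44% of all tested genes. For 3 members, or 1.99%, all 4 acLDL libraries lay below every control, against 2.20% of all tested genes. The filter on low values admits a gene that is high in a single group, so a member listed at 0 in the other group had to differ. The 12 members included Slco1a6, Slc1a7, Slc9a5, Slc1a4, Slc25a33, Slc7a6, Slc25a36, Slc6a20b, Slc2a1, Slc30a9 and Slc25a4, and the 3 were Slc38a1, Slc6a6 and Slc25a5-ps. Of those named, Slc1a4, Slc7a6, Slc25a36, Slc30a9, Slc38a1 and Slc6a20b were chosen after their values were seen. Slco1a6, Slc9a5, Slc25a33, Slc6a6 and Slc25a5-ps were named by the rule that takes the smallest p in each class, so their choice also used the values. Slc1a7 was in the preset set because earlier work on these data had named it. After quantile normalization 13 members lay above and 3 below, of which 9 and 2 were among those of the values as deposited, and the shares of all tested genes were 3.99% and 1.57%. In a count added after the data were seen, leaving out acLDL library 1 gave 23 members above (15.2%, against 14.0% of all tested genes) and 26 below (17.2%, against 18.9%). Leaving out acLDL libraries 2 and 3 gave 16 above (10.6%, against 5.59%) and 4 below (2.65%, against 4.69%).

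**Figure D1:**
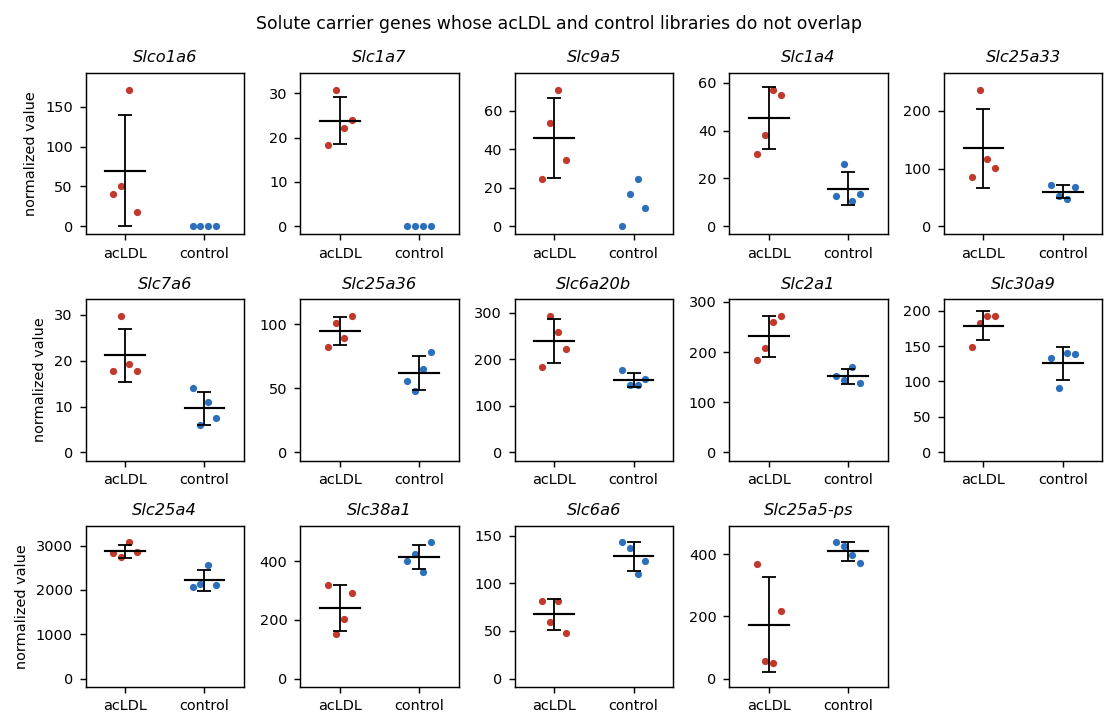
Normalized value (vertical axis, authors' scale) of 14 solute carrier genes whose 4 acLDL libraries (red) and 4 control libraries (blue) do not overlap. Each point is a library, lines and bars are the mean ± SD (n = 4), and no mean is drawn for a group with a library listed at 0. Slco1a6 and Slc1a7 are listed at 0 in all 4 controls, and Slc9a5 and Slc25a5-ps are separated by a narrow gap.

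The number of calls turned on acLDL library 1. Without it 32 members passed the threshold in limma's test, 12 higher and 20 lower, or 21.2% of those tested, against 21.7% of all tested genes. Limma's array weights, which gave acLDL library 1 the lowest weight at 0.34, brought 36 calls among the members, or 23.8%, against 19.4% of all tested genes. Without acLDL libraries 2 and 3 together no member passed, and 6, or 3.97%, had an unadjusted p under 0.05, against 3.02% of all tested genes.

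**Figure D2:**
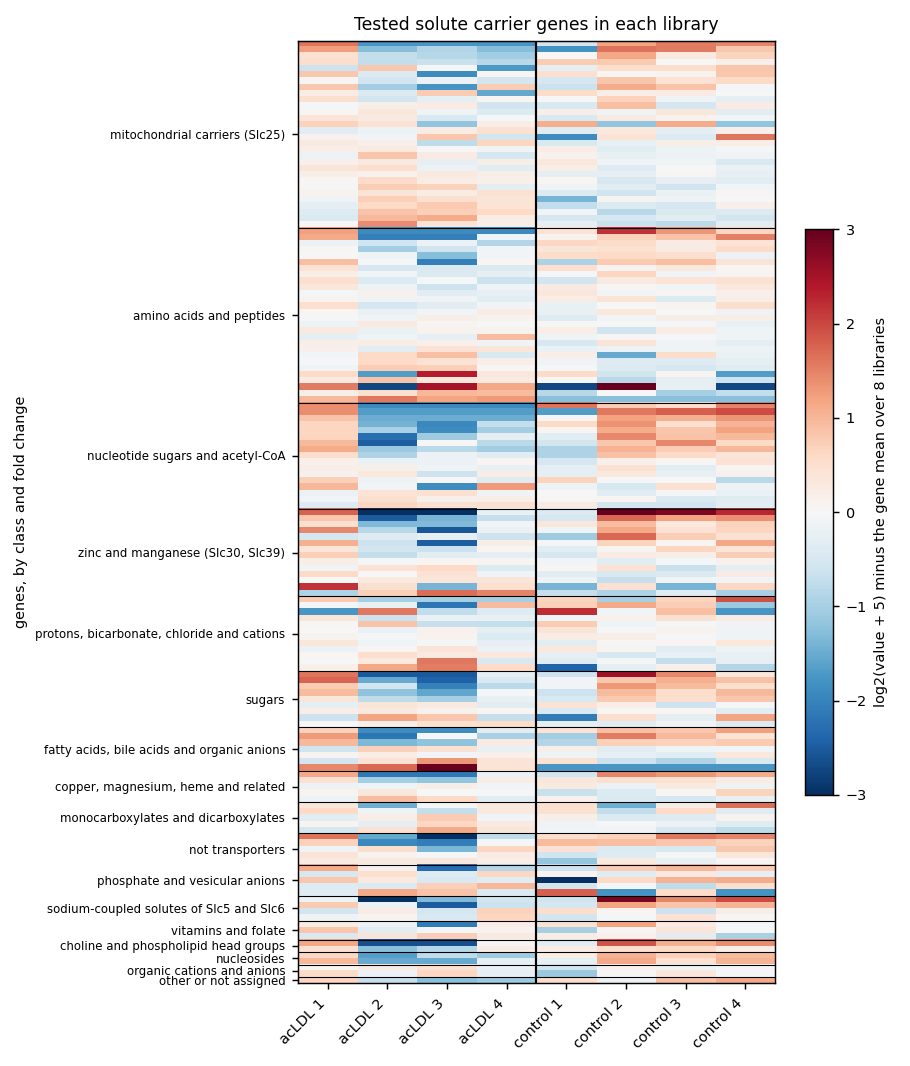
Deviation of log2(value + 5) from each gene's mean over the 8 libraries for the 151 tested solute carrier genes (rows, by class and fold change), with acLDL libraries 1 to 4 left of control libraries 1 to 4. Red is above and blue below the gene's mean. The block of low values in acLDL libraries 2 and 3 is seen in most classes, while acLDL library 1 resembles controls 2 to 4 there.

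Carriers of amino acids and peptides spread in both directions around the level of all genes. Of 32 genes listed, 28 were tested, 15 with a higher and 13 with a lower mean, and the median log2 fold change was 0.03, -0.01 with median-of-ratios size factors, 0.28 after quantile normalization and 0.10 with the index. An unadjusted p under 0.05 was reached by 4 higher and 3 lower members, where the shares of all tested genes were 7.42% and 8.93%, and none passed after adjustment. Slc1a7 (chromosome 4, 107968332 to 108013532, plus strand, GRCm38), a glutamate carrier known from the retina, was listed at 18.3, 30.9, 22.2 and 24 in acLDL libraries 1 to 4, and at 0, 0, 0 and 0 in control libraries 1 to 4. Every acLDL library lay above the controls, all of which were listed at 0 (adjusted p = 0.298 in limma). Because the table holds no value between 0 and 5, a value listed at 0 may stand for a low estimate, and no fold is given for this gene.

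Slc1a4 (chromosome 11, 20302180 to 20332713, minus strand), which exchanges alanine, serine and other neutral amino acids, had values of 30.2, 38.3, 57.1 and 55 with acLDL, against 12.5, 25.9, 10.5 and 13.7 in controls. Every acLDL library lay above the highest control, and the log2 difference was 1.30 (SE 0.38, adjusted p = 0.298 in limma). The related glutamine carrier Slc1a5 had a lower mean, with 40.8, 0, 0 and 14 with acLDL, against 17.3, 28, 32.5 and 53.9 in controls. Its acLDL libraries 2 and 3 were listed at 0 while acLDL library 1 lay among the controls, and the log2 fold change of -1.56 (SE 0.76) came to -0.07 with the index.

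The taurine carrier Slc6a6 was lower in all 4 acLDL libraries. It had 81.2, 59.2, 81.1 and 47.6 with acLDL, against 143, 137, 109.6 and 123 in controls, a mean of 67.3 ± 16.7 against 128 ± 15 (SD, n = 4 each). The log2 fold change was -0.91 (SE 0.26, adjusted p = 0.298 in limma) and -0.94 with the index. The sodium-coupled glutamine carrier Slc38a1 was lower likewise, with 317, 150.2, 202 and 293 with acLDL, against 400.3, 425, 364 and 465 in controls. On the log2 scale the difference was -0.82 (SE 0.26), and -0.48 with the index. Its close relative Slc38a2, a carrier that cells raise when amino acids run short, overlapped between groups, with 338, 280.2, 218 and 251 with acLDL, against 292, 467, 276 and 314 in controls (log2 difference -0.29, SE 0.24, and -0.06 with the index).

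Members of the heteromeric carriers, in which the heavy chain Slc3a2 holds a light chain of family Slc7 in the membrane, differed among themselves. Slc3a2 had 865, 609.9, 441 and 622 with acLDL, against 819, 699.6, 643 and 855 in controls, and the groups overlapped (log2 difference -0.28, SE 0.23, and 0.03 with the index). Slc7a11, the light chain that takes up cystine for glutathione, had 271, 132, 150.2 and 178 with acLDL, against 159.9, 187, 199 and 273 in controls, with a log2 fold change of -0.18 (SE 0.28) that turned to 0.22 with the index. Slc7a6, a light chain for basic and neutral amino acids, was low in every library but did not overlap, with 17.9, 29.8, 19.3 and 17.7 with acLDL, against 14, 5.94, 10.9 and 7.48 in controls (log2 difference 0.85, SE 0.40). The neutral amino acid light chain Slc7a8, chosen after its values were seen, was listed at 39.1, 0, 0 and 0 with acLDL, against 20.2, 79.5, 42.3 and 24.4 in controls. Only acLDL library 1 was above 0, and the log2 fold change of -2.27 (SE 0.80) came to -0.90 with the index.

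Among carriers of peptides and imino acids, Slc15a3, which moves histidine and small peptides out of lysosomes, had 662, 1205, 1191 and 744 with acLDL, against 689, 546, 496 and 560.3 in controls. Libraries 2 and 3 with acLDL were the highest and acLDL library 1 lay below control library 1, and the log2 fold change of 0.69 (SE 0.25, adjusted p = 0.298 in limma) came to 0.25 with the index. Its relative Slc15a4 was not tested, with 12.6, 0, 0 and 0 with acLDL, against 0, 20.01, 8.63 and 0 in controls. Slc6a20b, a mouse relative of the proline carrier, had 183, 294, 258 and 222 with acLDL, against 177, 144, 144 and 158 in controls, with a log2 fold change of 0.59 (SE 0.22) and 0.32 with the index. All its acLDL libraries lay above the controls, but its near copy Slc6a20a can share reads with it.

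Promoters of 3 tested amino acid carriers hold the core TGATGNAA of the C/EBP-ATF response element, through which the transcription factor ATF4 acts on genes of amino acid supply. The windows are from RefSeq (GRCm38.p6), 250 bases before to 50 after the gene's start, and are shown because Slc1a4 was among the members whose groups did not overlap while Slc7a11, a known target of ATF4, was not. Capitals mark the core on either strand, and the windows lie at chr11:20332664-20332963, minus strand, for Slc1a4, at chr3:50443564-50443863, minus strand, for Slc7a11, and at chr14:54417895-54418194, minus strand, for Slc7a7, where it is the first of 5 listed starts to hold the core.
Slc1a4: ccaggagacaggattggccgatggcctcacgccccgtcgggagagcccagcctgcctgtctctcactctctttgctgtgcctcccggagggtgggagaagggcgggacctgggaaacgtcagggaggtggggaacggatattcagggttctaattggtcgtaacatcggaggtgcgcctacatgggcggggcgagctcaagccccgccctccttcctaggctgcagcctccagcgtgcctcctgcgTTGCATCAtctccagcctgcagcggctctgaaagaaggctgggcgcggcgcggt
Slc7a11: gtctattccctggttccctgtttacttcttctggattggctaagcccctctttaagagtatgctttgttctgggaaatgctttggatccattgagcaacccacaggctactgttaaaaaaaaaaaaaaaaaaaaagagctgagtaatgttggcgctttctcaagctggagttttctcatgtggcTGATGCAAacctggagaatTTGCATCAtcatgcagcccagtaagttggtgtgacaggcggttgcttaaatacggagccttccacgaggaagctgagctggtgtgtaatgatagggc
Slc7a7: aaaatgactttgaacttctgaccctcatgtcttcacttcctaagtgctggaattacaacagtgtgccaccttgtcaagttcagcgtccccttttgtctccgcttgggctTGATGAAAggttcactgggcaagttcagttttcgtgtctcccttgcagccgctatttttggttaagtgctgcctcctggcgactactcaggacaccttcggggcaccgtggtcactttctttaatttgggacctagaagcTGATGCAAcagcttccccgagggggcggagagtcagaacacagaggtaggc
The core was found once for Slc1a4 and was found at 2 places each for Slc7a11 and Slc7a7. It was present in 3 of the 21 tested amino acid and peptide carriers with a promoter in the RefSeq table, or 14.3%, in 6 of 115 tested members, or 5.22%, and in 4.51% of all 27025 genes of that table. The 3 carriers had log2 fold changes of 1.30, -0.18 and 0.14 (SE 0.38, 0.28 and 0.41), and of 1.08, 0.22 and 0.21 with the index, with signs that differed among them in the fit without the index. Slc7a7, the light chain whose loss in people impairs the transport of basic amino acids, had 14, 8.58, 11.8 and 11.7 with acLDL, against 13, 5.42, 13.4 and 9.43 in controls, and the groups overlapped.

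Sugar carriers differed among themselves. Of 9 genes listed and tested, 4 had a higher and 5 a lower mean, and the median log2 fold change was -0.81, or 0.24 with the index. Slc2a1 (chromosome 4, 119108711 to 119137983, plus strand), the GLUT1 glucose carrier that activated myeloid cells use, was the member whose groups did not overlap. It had 184, 208, 259.6 and 272 with acLDL, against 153, 144, 171 and 138 in controls, a mean of 231 ± 41.8 against 151 ± 14.3 (SD, n = 4 each). On the log2 scale the difference was 0.58 (SE 0.21, adjusted p = 0.298 in limma) and 0.45 with the index. Slc2a6, a glucose carrier of lysosomes in macrophages, had 269, 23.5, 10.2 and 54.1 with acLDL, against 72.2, 137, 167 and 145 in controls. The acLDL libraries lay both above and below every control, and the log2 fold change of -1.34 (SE 0.80) turned to 0.45 with the index. Slc37a4, which brings glucose 6-phosphate into the endoplasmic reticulum, had 29.1, 8.66, 0 and 6.47 with acLDL, against 14.3, 45, 33.8 and 23.4 in controls, with a log2 fold change of -1.33 (SE 0.63) and -0.22 with the index. The sugar phosphate exchanger Slc37a2, known from macrophages, had 266, 415, 385 and 258 with acLDL, against 433, 366, 207 and 309 in controls, and a log2 fold change of 0.03 (SE 0.28), which was -0.02 with median-of-ratios size factors and -0.34 with the index.

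The mitochondrial family Slc25 held the most members. Of 33 listed genes 30 were tested, 18 with a higher and 12 with a lower mean, and the median log2 fold change was 0.12, against -0.13 over all tested genes. After quantile normalization 23 were higher and 7 lower, with a median of 0.37 against 0.15 over all tested genes, and with the index the medians were 0.22 and 0.03. An unadjusted p under 0.05 was reached by 6 higher members and 1 lower one, where the shares of all tested genes were 7.42% and 8.93%, and none passed after adjustment. Slc25a4 (chromosome 8, 46206797 to 46211284, minus strand), an exchanger of ADP and ATP, had 2823, 2734, 3079 and 2863 with acLDL, against 2062, 2126, 2570.4 and 2111 in controls, a mean of 2875 ± 146 against 2217 ± 237 (SD, n = 4 each). Its groups did not overlap, and the log2 difference was 0.38 (SE 0.15, adjusted p = 0.298 in limma) and 0.37 with the index. The second ADP/ATP exchanger, Slc25a5 (chromosome X, 36795651 to 36798807, plus strand), overlapped widely, with 1385, 235, 309.7 and 233 with acLDL, against 162, 1786, 1704 and 1008 in controls. Library 1 with acLDL stood with controls 2 to 4, and control library 1 lay lowest of all, and the log2 fold change of -1.09 (SE 0.84) turned to 0.21 with the index. Its pseudogene Slc25a5-ps had 369.7, 54.9, 49.98 and 218 with acLDL, against 439, 427, 398 and 369.8 in controls. The highest acLDL library and the lowest control were almost equal there, and the log2 difference was -1.68 (SE 0.59) and -0.48 with the index. These genes have near-identical stretches, and reads shared among them make each level uncertain.

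The phosphate carrier of the inner membrane, Slc25a3, which feeds ATP synthesis, had 6758, 9767, 7577 and 7284 with acLDL, against 6795, 4632, 5474 and 5135 in controls, so that acLDL library 1 lay just below the highest control. On the log2 scale the difference was 0.51 (SE 0.19, adjusted p = 0.298 in limma), and 0.34 with the index. Both carriers of pyrimidine nucleotides, Slc25a33 and Slc25a36, lay higher in every acLDL library than in any control. Slc25a33 had 86.1, 237, 116 and 100.5 with acLDL, against 71.2, 52.5, 48 and 68.7 in controls, with a log2 fold change of 1.01 (SE 0.35) and 0.63 with the index. Slc25a36 had 82.5, 101, 89.3 and 107 with acLDL, against 55.8, 48.3, 65.6 and 78.4 in controls, with a log2 fold change of 0.59 (SE 0.25). Slc25a46, a relative in the outer membrane that takes part in mitochondrial shape, had 562, 1496, 1644 and 882 with acLDL, against 529, 529, 599.7 and 509.8 in controls. Its acLDL library 1 lay within the controls, and the log2 fold change of 0.95 (SE 0.33) came to 0.32 with the index. Slc25a20, which carries acylcarnitines in for fatty acid oxidation, overlapped between groups, with 91.6, 106, 139 and 163 with acLDL, against 90.4, 149, 95.3 and 131 in controls (log2 difference 0.09, SE 0.28, and -0.01 with the index).

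**Figure D3:**
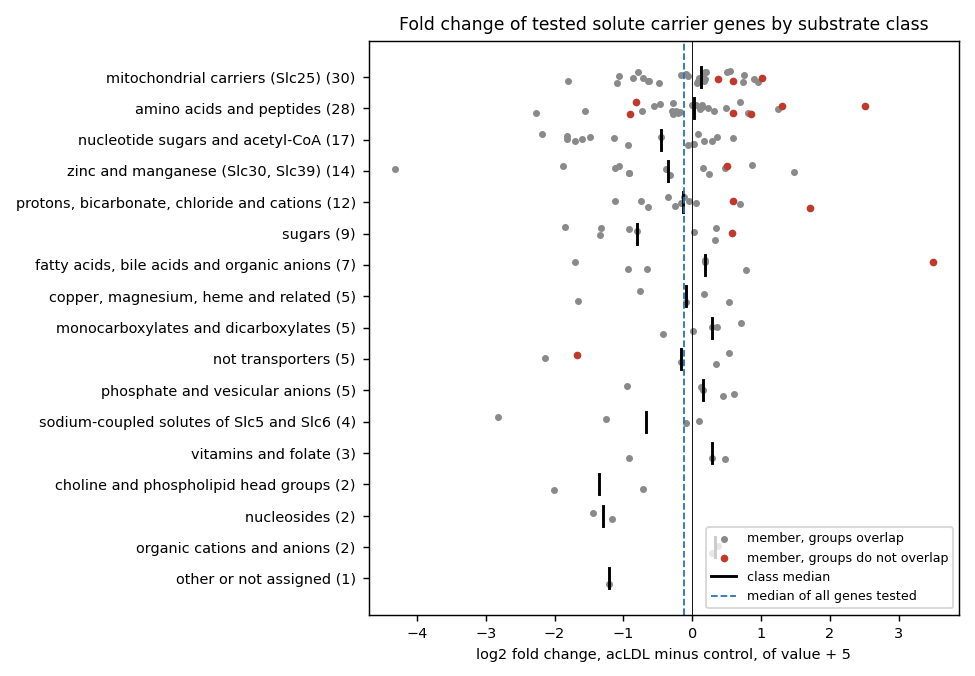
Log2 fold change (acLDL minus control, log2 of value + 5) of the 151 tested solute carrier genes by substrate class, with the number of genes in brackets. Points are genes, red where the 4 acLDL and 4 control libraries do not overlap, black bars are class medians and the dashed line is the median of all tested genes at -0.13. The points far right, Slco1a6 and Slc1a7, are listed at 0 in the controls, so their position depends on the pseudocount of 5.

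Both tested nucleoside carriers had a lower mean. Of 17 tested carriers of nucleotide sugars and related cargo, 10 had a lower mean and 7, or 41.2%, a higher one, against 44.3% of all tested genes. The 2 nucleoside carriers had a median log2 fold change of -1.30, or -0.34 with the index. Slc29a3, which releases nucleosides from lysosomes, had 54.4, 7.31, 17.7 and 13.4 with acLDL, against 38.8, 75.3, 58.6 and 69.5 in controls. Its acLDL library 1 lay among the controls and the other 3 below all of them, and the log2 difference was -1.44 (SE 0.51, adjusted p = 0.298 in limma) and -0.72 with the index. Slc29a1, the nucleoside carrier of the cell surface, had 23, 0, 0 and 6.66 with acLDL, against 6.51, 26.1, 14.6 and 24 in controls, with a log2 fold change of -1.16 (SE 0.67) and 0.04 with the index. Family Slc35, whose members supply the Golgi and endoplasmic reticulum, and Slc33a1 had a median of -0.45, or 0.08 with the index, with 8 of 17 higher and a median of -0.05 after quantile normalization. With median-of-ratios size factors 5 of 18 tested were higher, and the median was -0.41. The 4 members at an unadjusted p under 0.05 were lower, where the share of all tested genes lower at that p was 8.93%. Slc35b1, which exchanges ATP and ADP across the endoplasmic reticulum, had 81.4, 15.8, 9.52 and 28.9 with acLDL, against 78, 136, 71.9 and 106 in controls (log2 difference -1.71, SE 0.54, and -0.66 with the index). Slc35b3, which brings the sulfate donor PAPS into the Golgi, had 63.8, 17.4, 6.91 and 16.8 with acLDL, against 40.7, 90.7, 72.6 and 96.5 in controls (log2 difference -1.61, SE 0.55, and -0.57 with the index). In both genes acLDL library 1 lay within the controls and acLDL libraries 2 to 4 lay below them. Slc35f6, by contrast, had 251, 379, 391 and 266 with acLDL, against 287, 229, 273 and 248 in controls, with a log2 fold change of 0.28 (SE 0.22) and -0.02 with the index.

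Zinc and manganese carriers are split into exporters and vesicle loaders of family Slc30 and importers of family Slc39. Of 17 listed genes 14 were tested, 6 with a higher and 8 with a lower mean, and the median of -0.35 was 0.10 after quantile normalization, with 8 of 14 higher, and 0.23 with the index. Slc39a1 (chromosome 3, 90248172 to 90253612, plus strand), a zinc importer of the cell surface, varied more than any other named member, with 580.4, 0, 0 and 141 with acLDL, against 123, 2664, 1196 and 807 in controls. The acLDL libraries listed at 0 were those with the lowest short-transcript index, and the log2 fold change of -4.31 (SE 1.63, adjusted p = 0.298 in limma) came to -0.78 with the index. Slc39a5, another importer, had 31.5, 109, 217 and 192 with acLDL, against 38, 32, 49.5 and 30.3 in controls. Its acLDL library 1 lay within the controls and the other 3 above them, with a log2 fold change of 1.47 (SE 0.55) and 0.61 with the index. Slc30a9, a zinc carrier of mitochondria, had 148, 182, 193 and 192 with acLDL, against 133, 90.6, 140.3 and 139 in controls. All its acLDL libraries lay above the controls, and the log2 difference was 0.50 (SE 0.23).

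The zinc exporter Slc30a1, which the metal-sensing factor MTF1 raises when zinc is in excess, overlapped between groups. It had 112, 38.4, 51.7 and 53 with acLDL, against 45.3, 78.9, 75.8 and 114 in controls, with a log2 fold change of -0.32 (SE 0.40), which was 0.01 after quantile normalization and 0.24 with the index. Its RefSeq promoter window (GRCm38.p6, chr1:191906531-191906830, plus strand) is shown because it is the member of this class best known as an MTF1 target, with the metal response core TGCNCNC in capitals.
Slc30a1: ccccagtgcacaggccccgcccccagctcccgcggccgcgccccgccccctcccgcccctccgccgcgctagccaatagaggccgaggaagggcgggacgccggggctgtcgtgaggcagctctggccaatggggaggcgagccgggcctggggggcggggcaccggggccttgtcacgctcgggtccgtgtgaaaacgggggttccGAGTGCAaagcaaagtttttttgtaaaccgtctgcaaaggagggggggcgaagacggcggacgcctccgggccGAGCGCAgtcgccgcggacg
The core was found at 2 places, both on the strand opposite to the gene. It was present in 9 of the 13 tested zinc and manganese carriers with a promoter in the table, or 69.2%, and in 53.6% of all genes of the table, so these letters are common. The metallothionein Mt2, which binds zinc and answers to the same factor and is no carrier, had 771, 11, 20.4 and 176 with acLDL, against 303, 633, 696 and 538 in controls (log2 difference -2.59, SE 1.10, adjusted p = 0.298 in limma, and -0.21 with the index).

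Carriers of copper, magnesium and heme had 2 higher and 3 lower means among 5 tested. The copper importer Slc31a1 had 483, 171, 151 and 411 with acLDL, against 442, 492, 485 and 412 in controls, where acLDL libraries 2 and 3 lay far below the rest (log2 difference -0.76, SE 0.38, and -0.01 with the index). The magnesium carrier Slc41a3 had 44, 0, 0 and 14.7 with acLDL, against 9.92, 56.2, 50.5 and 43.4 in controls (log2 difference -1.67, SE 0.84, and 0.02 with the index). The heme carrier Slc48a1, which returns heme from lysosomes, had 1159, 2461, 1935 and 1026 with acLDL, against 1397, 956, 886 and 1103 in controls. Its highest values were in acLDL libraries 2 and 3, and the log2 fold change of 0.53 (SE 0.31) came to 0.04 with the index.

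Monocarboxylate and related carriers had 4 higher and 1 lower mean among 5 tested, 3 and 2 with median-of-ratios size factors and 5 and 0 after quantile normalization, with a median of 0.28 and of 0.70 after quantile normalization. The lactate exporter Slc16a3, typical of glycolytic cells, had 212, 424, 679.6 and 397 with acLDL, against 291, 289, 220.5 and 180.2 in controls. All acLDL libraries but the first lay above every control, and the log2 fold change of 0.70 (SE 0.35, adjusted p = 0.301 in limma) came to 0.06 with the index. Slc16a1, which carries lactate in both directions, had 83.2, 48.5, 30.4 and 65.3 with acLDL, against 75.3, 30.2, 83.4 and 40.7 in controls, with a log2 fold change of 0.01 (SE 0.42), -0.03 with median-of-ratios size factors and 0.46 with the index. Slc16a7, a pyruvate carrier, had 19.2, 13.8, 30.4 and 23 with acLDL, against 16.3, 17.2, 15.3 and 12.9 in controls (log2 difference 0.35, SE 0.37).

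Ion exchangers and chloride cotransporters had 4 higher and 8 lower means among 12 tested, 6 and 6 after quantile normalization, with a median of -0.14, 0.02 after quantile normalization and -0.09 with the index. The sodium and proton exchanger Slc9a5, known from brain, had 24.5, 54, 71.1 and 34.3 with acLDL, against 0, 16.7, 24.4 and 9.31 in controls. The lowest acLDL library and the highest control were nearly equal (log2 difference 1.71, SE 0.61). Slc26a10, of the anion exchanger family, had 649, 586, 648 and 452 with acLDL, against 698, 686, 589 and 547 in controls, and a log2 fold change of -0.12 (SE 0.19).

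Carriers of fatty acids, bile acids and organic anions had 4 higher and 3 lower means among 7 tested. Slco1a6 (chromosome 6, 142085761 to 142208521, minus strand), an organic anion carrier of rodents, was listed at 40.2, 50.5, 172 and 17.3 in acLDL libraries 1 to 4, and at 0, 0, 0 and 0 in control libraries 1 to 4. Every acLDL library was above the controls, but values with acLDL spread widely among themselves (adjusted p = 0.298 in limma), and related Slco1a genes can share its reads. Slco6c1, chosen after its values were seen and too low to be tested, showed the same order, at 6.52, 23.9, 18.5 and 6.33 with acLDL and 0, 0, 0 and 0 in controls. The other Slco genes listed, Slco2a1, Slco3a1, Slco4a1 and Slco5a1, overlapped between groups. Slc27a4, which activates and takes up long-chain fatty acids, had 150.1, 306, 568 and 293 with acLDL, against 311, 141, 117 and 162 in controls, with a log2 fold change of 0.78 (SE 0.43) and -0.06 with the index. Its relative Slc27a3 had 24.2, 0, 0 and 9.33 with acLDL, against 19.6, 29.1, 27.1 and 38 in controls, where acLDL libraries 2 and 3 were listed at 0 (log2 difference -1.70, SE 0.64, and -0.53 with the index).

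Carriers of neurotransmitters, choline, phosphate and vitamins were mostly low and variable. The serotonin carrier Slc6a4 had 43.6, 19.7, 0 and 13 with acLDL, against 14.6, 58.3, 45.1 and 51.9 in controls (log2 difference -1.26, SE 0.72, and 0.03 with the index). Both choline carrier-like genes had lower means: Slc44a1 had 63.6, 0, 0 and 27.9 with acLDL, against 19.5, 109, 60.1 and 75.9 in controls (log2 difference -2.01, SE 0.93, and -0.10 with the index), and Slc44a2 came to -0.71 (SE 0.47, and -0.02 with the index). Among phosphate and vesicular carriers, 4 of 5 had a higher mean log2 value. The sialic acid carrier of lysosomes, Slc17a5, had 67.1, 46, 25.5 and 27.5 with acLDL, against 0, 58, 80.9 and 84.3 in controls, with a log2 fold change of 0.15 (SE 0.89, and 1.07 with the index). Without control library 1, which was listed at 0, the log2 fold change was -0.85. The vesicular glutamate carrier Slc17a8 had a log2 fold change of 0.44 (SE 0.48, and 0.22 with the index) and the phosphate importer Slc20a1 one of -0.95 (SE 0.74, and 0.34 with the index). The riboflavin carrier Slc52a2 had 151, 276, 349 and 252 with acLDL, against 244, 228, 167 and 104 in controls (log2 difference 0.47, SE 0.35, and -0.04 with the index), and the lysosomal Slc46a3 had a log2 fold change of -0.92 (SE 0.61, and -0.11 with the index). The organic ion carrier family members Slc22a15 and Slc22a23 had log2 fold changes of 0.38 (SE 0.40, and 0.57 with the index) and 0.28 (SE 0.40, and 0.17 with the index). Slc66a2, placed in no class, had 94.2, 34.5, 21.9 and 24.7 with acLDL, against 87.3, 52.5, 115 and 135 in controls (log2 difference -1.21, SE 0.48, and -0.55 with the index), and the scaffold gene Slc9a3r1 had 175, 15.7, 0 and 30.1 with acLDL, against 80.4, 91.6, 174 and 160.0 in controls (log2 difference -2.13, SE 0.93, and -0.11 with the index).

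Genes that work with carriers without being carriers of the Slc name were looked at as a list of 66, of which 50 are in the table and 46 were tested. None passed the threshold, and 15 had a higher and 31 a lower mean, where 44.3% of all tested genes had a higher mean. The median log2 fold change of the list was -0.49, against -0.13 over all tested genes. With the index it was 0.07, against 0.03 over all tested genes. At an unadjusted p under 0.05 were 6, or 13%, of which 1 was higher and 5 lower, against 16.4% of all tested genes. Lamtor1, which anchors the amino acid sensor mTORC1 at the lysosome, had 503, 668, 879.9 and 699 with acLDL, against 466, 394, 493 and 447 in controls, so that all acLDL libraries lay above the controls (log2 difference 0.58, SE 0.21, adjusted p = 0.298 in limma, and 0.30 with the index). By contrast, Lamtor2, Lamtor3, Lamtor4 and Lamtor5 had lower means. Their log2 differences were -0.51, -0.996, -0.14 and -1.49 (SE 0.78, 0.58, 0.44 and 0.62), and 0.17, 0.22, 0.28 and -0.14 with the index. Of 12 tested genes of amino acid sensing at the lysosome, 3 had a higher and 9 a lower mean. Mpc2, a subunit of the mitochondrial pyruvate carrier, had 729, 83.8, 36.8 and 118 with acLDL, against 259.9, 531, 611 and 433 in controls (log2 difference -1.71, SE 0.77, and 0.01 with the index). Psat1, an enzyme of serine synthesis under ATF4, had 73.3, 103, 134 and 91.2 with acLDL, against 82.2, 47.5, 60.1 and 59.1 in controls (log2 difference 0.64, SE 0.28, and 0.26 with the index). Of 5 tested genes of the amino acid response, 4 had a higher mean and 1, Atf4 itself, a lower one. For Atf4 the log2 difference was -0.66 (SE 0.41), and 0.12 with the index. Mfsd5, of another carrier family, had 56.1, 19.6, 0 and 15.8 with acLDL, against 77.3, 48.1, 61.5 and 84.1 in controls, and Arrdc3, an adaptor for the removal of membrane proteins, 24.8, 0, 6.61 and 15.4 with acLDL, against 41.7, 37.9, 24.4 and 15.7 in controls. For Mfsd5 the log2 difference was -1.84 (SE 0.69), and -0.67 with the index. For Arrdc3 it was -1.28 (SE 0.61), and -0.59 with the index. The sodium pump subunit Atp1b1 was low in both groups, at 9.93, 12.4, 7.47 and 7.28 with acLDL, against 12.7, 10.2, 13.5 and 15.9 in controls, with a log2 fold change of -0.35 (SE 0.38, and -0.32 with the index).

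Fold changes were lower for members with transcripts under 2500 nt than for longer ones, as they were over all genes. Of 39 tested members whose longest transcript is under 2500 nt, 15 had a higher mean, and their median log2 fold change was -0.65, against -0.50 over 3721 such genes in all. The 54 members of 2500 nt to under 4000 nt had a median of 0.05, against -0.05 over 2875 genes, and the 58 members of 4000 nt and over had a median of 0.03, against 0.03 over 3325 genes. With the index as a covariate the medians of the members were 0.09, 0.04 and 0.14 in the order of rising length. Of 20 members listed at 0 in both acLDL library 2 and acLDL library 3, 18 were above 0 in acLDL library 1 and 12 were above 0 in all 4 controls. Of the members whose groups did not overlap and whose controls were not all listed at 0, Slc6a6, Slc1a4, Slc9a5, Slc25a4, Slc25a36, Slc2a1, Slc7a6 and Slc30a9 kept their log2 fold change within 1.5 times when the index was added.

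**Figure D4:**
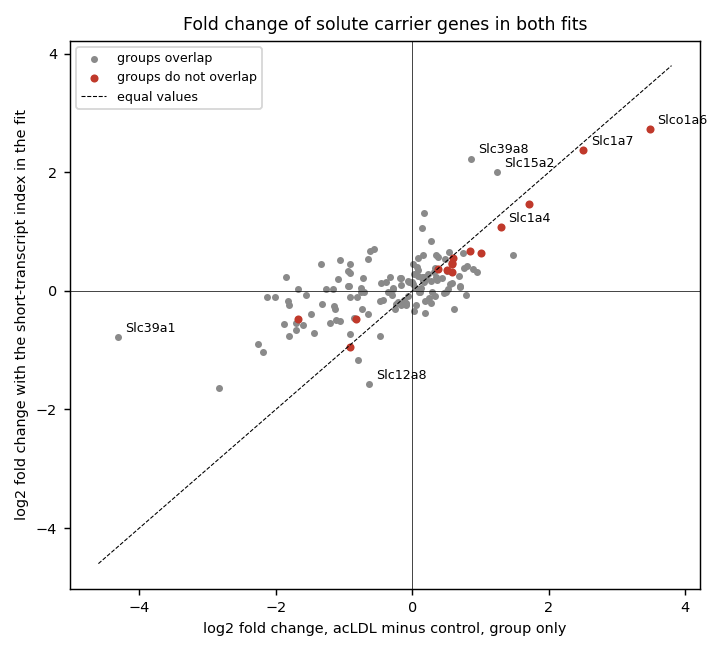
Log2 fold change (acLDL minus control) of the 151 tested solute carrier genes in the fit with group only (horizontal axis) and with the short-transcript index added (vertical axis), red where the groups do not overlap. Points on the dashed line are equal in both. Members far to the left, such as Slc39a1, come closer to 0 with the index, while Slc6a6 and Slc1a4 stay near the line.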

How the data were processed

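RNA of CD11c positive bone marrow cells was sequenced from one end of each message, by a 3' kit per the labels' protocols, while the design text says 5'. The submitters' processing notes name bcl2fastq 2.20, kallisto and mm10; for annotation, filters and normalization the sources used here give no tool. The deposited table of 11756 genes and 8 libraries is described as raw counts, but its values are not whole, none lies between 0 and 5, and the lowest above 0 is 5.001, so it was treated as a normalized signal of the authors and no count test was run. Read depth is therefore unknown. Column totals ran from 3917426 to 4385051. kallisto shares reads among near copies, and whether strand was used is not given.

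Values were tested on log2(value + 5) with limma 3.58.1 in R 4.3.3 (trend and robust, Benjamini-Hochberg adjustment over all 10091 genes with at least 10 in at least 4 libraries, threshold 0.05); Python 3.11.15 drew the figures. The fit with group only was also run on simulated data, with noise drawn independently for each gene. Those data lack the spread in short transcripts that genes share here, so they cannot show how the fit behaves under it. The 4 acLDL and 4 control libraries were grouped by their labels. The design had been written for either unit and the one for normalized values was used. Transcript lengths and gene coordinates came from GENCODE M21 (GRCm38), which matched 98% of symbols and all 182 members. Promoters came from the RefSeq table (GRCm38.p6), which held 142 of the 182 members. Substrate classes were assigned by gene family, with exceptions for single genes, from textbook substrates. The members, classes and partner list were chosen with earlier results of these data known. The text names, in each class, the 2 members with the smallest p and the 1 with the highest mean, in each partner role the gene with the smallest p, and a preset set (Slc7a5 and Slco2b1 of it were not in the table used), beside members whose groups do not overlap and carriers of the promoter core. Some genes that this rule takes are not reported here. Alternatives were pseudocounts of 1 and 20, 2 rescalings, 2 filters, a replicate block, the short-transcript index, array weights and left-out libraries.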

Additional observations from a re-analysis of the deposited data

Results flagged for a closer look

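In 6 of 112 groups of 4 libraries among the named members 1 library lay far from the other 3, by a test that chance alone flags in about 1 of 20 groups. Slc2a6, the lysosomal glucose carrier, had 269 in acLDL library 1, against 10.2 to 54.1 in the other acLDL libraries. Slc25a5, an ADP/ATP exchanger, had 1385 in that library, against 233 to 309.7 in the other acLDL libraries. The lysosomal histidine and peptide carrier Slc15a4 had 12.6 there and was listed at 0 in the other acLDL libraries, so that its distance from them follows from the zeros alone. Slc7a6 was highest in acLDL library 2, at 29.8, against 17.7 to 19.3 in the others. Control library 2 was the low one for Slc30a9, at 90.6, against 133 to 140.3 in the other controls. Slc25a4 was highest in control library 3, at 2570.4, against 2062 to 2126 in the other controls.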

How the results depend on the processing

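No member passed the threshold with pseudocounts of 1 or 20, either rescaling, either filter, the replicate block or the index. Array weights gave 36 members past it and leaving out 1 library 0 to 32, and among all genes quantile normalization gave 1, array weights 1957 and leaving out 1 library 0 to 2190. The members' median log2 fold change was 0.28 after quantile normalization and 0.14 with at least 10 in all 8 libraries, a filter that removes genes low in either group. For amino acid carriers the median was 0.28 after quantile normalization, -0.18 with that filter and -0.096 to 0.059 with 1 library left out. The mitochondrial median was 0.37 after quantile normalization, and that of zinc carriers 0.10 there, 0.20 with that filter and 0.23 with the index. With the index the medians of nucleoside and sugar carriers were -0.34 and 0.24. The sign turned with the index for Slc20a1 (0.34), Slc25a20 (-0.014), Slc25a5 (0.21), Slc27a4 (-0.064), Slc29a1 (0.037), Slc2a6 (0.45), Slc30a1 (0.24), Slc35f6 (-0.021), Slc37a2 (-0.34), Slc3a2 (0.029), Slc41a3 (0.024), Slc52a2 (-0.037), Slc6a4 (0.029) and Slc7a11 (0.22). It turned with array weights for Slc16a1 (-0.037), Slc17a5 (-0.71) and Slc22a15 (-0.10), with median-of-ratios size factors for Slc16a1 (-0.027) and Slc37a2 (-0.016), with a pseudocount of 20 for Slc17a5 (-0.10) and after quantile normalization for Slc30a1 (0.00755). Without acLDL libraries 2 and 3 it turned for Slc30a1 (0.046), Slc35f6 (-0.000154), Slc37a2 (-0.27) and Slc7a11 (0.13). With 1 library left out, values ran from -0.23 to 0.25 for Slc16a1, -0.85 to 0.54 for Slc17a5, -0.17 to 0.17 for Slc37a2, -0.042 to 0.22 for Slc25a20 and -0.18 to 0.00107 for Slc26a10. The cause of these changes was not tested. Deviations of libraries of the same number from their group means had correlations of -0.55, -0.21, -0.28 and 0.03. The labels do not say whether such libraries share an animal or culture. These correlations cannot decide it, because the deviations also hold the spread of the libraries in short transcripts. With the replicate block 0 members passed and 15, or 9.93%, had an unadjusted p under 0.05, against 7.23% of all genes. Read depth is unknown, so no counting error can be given, and members with low values, among them the 31 not tested, are the least certain.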
